A study of Mus musculus with 9 samples.

Results

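The genes described are 7 matrix metalloproteinases (MMPs), Mmp2, Mmp8, Mmp9, Mmp12, Mmp13, Mmp14 and Mmp19, and 3 of their tissue inhibitors, Timp1, Timp2 and Timp3. They were chosen by symbol, through the Ensembl identifier of each row, and make up 10 of the 53465 genes in the deposited count table. All 10 passed the filter on low counts. RNA was sequenced in 3 groups of 3 libraries. Lining macrophages (libraries A, B and C) were GFP-positive and interstitial macrophages (D, E and F) GFP-negative, and both were sorted by flow cytometry as CD45+CD11b+F4/80+ cells from the hind paw synovium of healthy mice of the strain Cx3cr1-GFP, in which green fluorescent protein reports the gene of the fractalkine receptor. All 6 sorted libraries therefore come from reporter mice. The bone marrow-derived macrophages (BMDM; G, H and I) came from C57BL/6 mice without a reporter named in the labels and were grown for 5 days in MCSF-conditioned medium, which carries the macrophage growth factor. The labels give neither the age of the mice nor the number of mice behind a library, and they leave unsaid whether the libraries of a group are biological or technical replicates. The p-values accordingly refer to the spread among the sequenced libraries. Strain, reporter, sorting and culture all differ between sorted cells and BMDM and cannot be told apart in those comparisons.

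MMPs are zinc-dependent endopeptidases that cut collagen, elastin and other matrix proteins, and most are made as inactive proenzymes. Gelatinases (Mmp2 and Mmp9) cut denatured collagen, collagenases (Mmp8 and Mmp13) cut native collagen fibrils, and Mmp12 is the macrophage elastase. Mmp14 is anchored in the cell membrane and activates the proenzyme of Mmp2 in a complex that also holds Timp2, so that Timp2 is at once an inhibitor and part of that activation step. In joints the family is known for turnover of synovium, cartilage and bone.

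Between the 2 synovial populations, 3 genes that act together in that complex, Mmp2, Mmp14 and Timp2, were higher in lining macrophages, and the collagenase Mmp13 was lower. The promoter sequences of those of the 4 that had an entry are shown, and any link between their motifs and the direction of change was not tested. Each is the 250 bases before the transcription start in RefSeq (GRCm38.p6), 5′ to 3′ on the gene's strand, and capitals mark the motif matches. Mmp13 lies at chr9:7272264-7272513 on the plus strand, Mmp14 at chr14:54431348-54431597 on the plus strand and Timp2 at chr11:118355412-118355661 on the minus strand. In the annotation used for the counts, Timp2 begins at 118355740. Its window, placed by the RefSeq start, thus lies inside the counted gene.
Mmp13: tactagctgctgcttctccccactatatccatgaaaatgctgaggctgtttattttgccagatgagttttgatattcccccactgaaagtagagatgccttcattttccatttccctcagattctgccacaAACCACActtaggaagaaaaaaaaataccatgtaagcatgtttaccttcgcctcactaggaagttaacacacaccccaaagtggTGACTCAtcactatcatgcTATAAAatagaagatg
Mmp14: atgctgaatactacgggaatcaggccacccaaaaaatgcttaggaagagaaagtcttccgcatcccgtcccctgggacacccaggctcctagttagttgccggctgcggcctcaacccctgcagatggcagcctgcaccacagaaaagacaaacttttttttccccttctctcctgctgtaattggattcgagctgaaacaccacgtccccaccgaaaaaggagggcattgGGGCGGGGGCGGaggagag
Timp2: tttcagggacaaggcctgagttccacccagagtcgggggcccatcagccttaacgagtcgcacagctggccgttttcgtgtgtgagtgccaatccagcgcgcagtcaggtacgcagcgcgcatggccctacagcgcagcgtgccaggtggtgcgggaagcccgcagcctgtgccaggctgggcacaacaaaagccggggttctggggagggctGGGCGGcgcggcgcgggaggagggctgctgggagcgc
Of the 10 genes, 7 had a promoter entry, with 8 starts between them, and Mmp2, Mmp9 and Mmp19 were not matched. Motifs were searched on both strands of these windows and of all 32851 promoters of the same length. The AP-1 motif, TGANTCA, occurs in 6.749% of all promoters. For the RUNX motif, AACCACA, the share is 4.396%. A GC box, spelled GGGCGG, is in 32.74% of promoters. The TATA box was searched as TATAAA and is in 12.37%. The Mmp13 window held an AP-1 match 35 bases before the start, a RUNX match 119 bases before it and a TATA box match 16 bases before it, none of which overlap. Mmp14 held a pair of adjoining GC boxes, 19 and 13 bases before the start, and Timp2 a GC box 37 bases before it. Timp1 and Timp3 each held 1 GC box, the second start of Mmp12 an AP-1 match 44 bases before it, and the first start of Mmp12 and the start of Mmp8 none of the 4. A match of letters is a description of the sequence and not evidence that a factor binds there.

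Libraries held 2194920 to 22499823 counts, with the sorted libraries between 2194920 and 11137451 and the BMDM libraries above all of them. Levels are in CPM, the usual per-library scaling of counts, with TMM factors that adjust for differences in library makeup. A floor of 3 counts corresponds to 0.273 to 1.45 CPM in a sorted library. Cx3cr1, the gene behind the reporter used in the sort, had 687, 775 and 663 CPM in lining, 2.66, 4.28 and 7.86 CPM in interstitial and 311, 236 and 287 CPM in BMDM, so the sorted libraries went with their labels. The 9 macrophage identity genes were all counted in every group. They include the sort markers Ptprc, Itgam and Adgre1 and the reporter gene Cx3cr1. Their CPM summed to 9892 to 11431 in lining, 6957 to 9951 in interstitial and 5650 to 5925 in BMDM.

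The first comparison asked which MMP and TIMP transcripts set lining macrophages apart from the macrophages lying deeper in the synovium. Of the 10 genes, 3 were higher in lining, 1 was lower and 6 were not called, by edgeR's quasi-likelihood test at a threshold of 0.05 on p-values adjusted after Benjamini and Hochberg over 12610 genes. Over all genes tested, 5.79% were called, 3.74% as higher and 2.05% as lower. The median log2 fold change of the 10 genes was -1.50, beside -0.01 over all genes, and is the same with Mmp8, which had 0 counts in lining, at its bound. For 6 of the 10 the levels of the synovial groups did not overlap, against 18.6% of all genes.

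**Figure D1:**
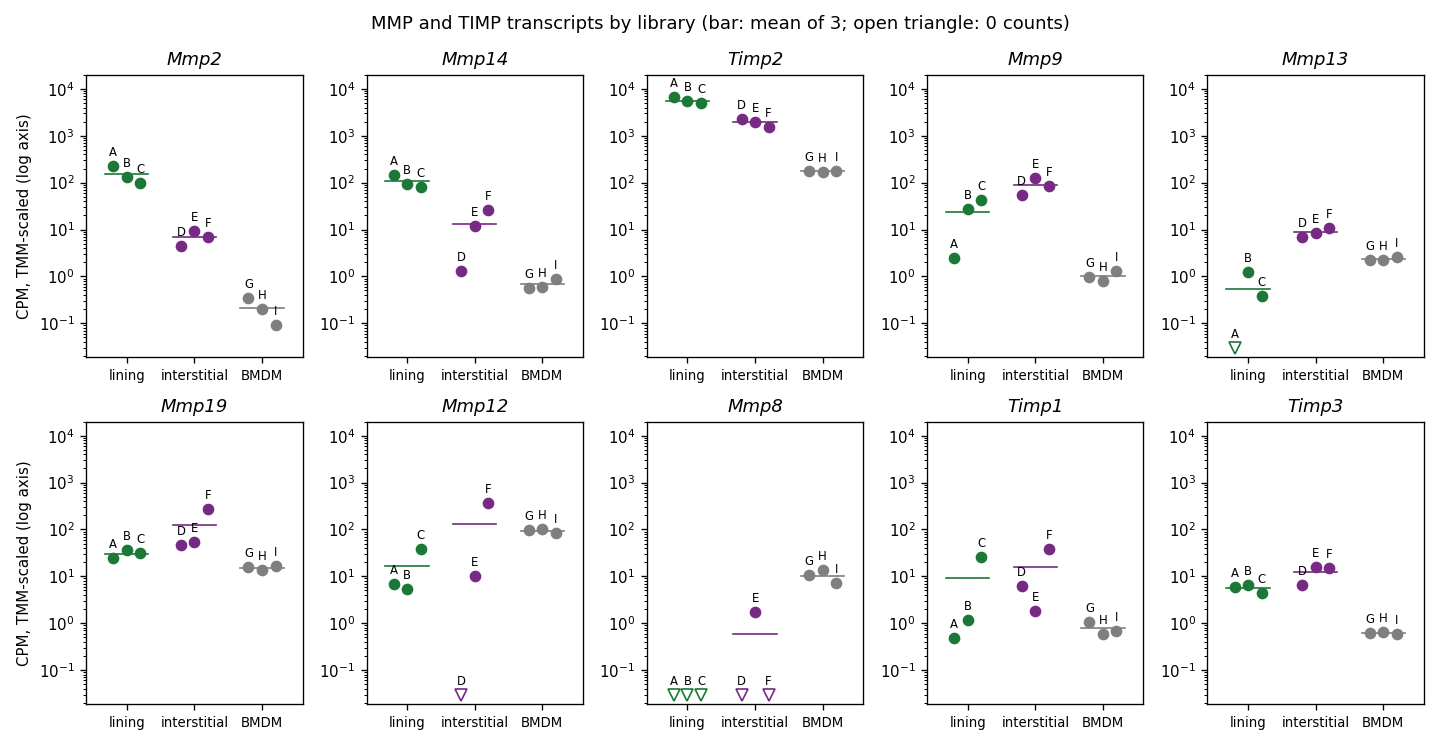
TMM-scaled CPM (log axis) of each of the 10 genes in the 3 lining (green), 3 interstitial (purple) and 3 BMDM (grey) libraries, with a bar at the group mean and an open triangle for a library with 0 counts. Mmp2, Mmp14 and Timp2 step down across the groups without overlap, while Mmp12, Timp1 and Mmp19 have lining C or interstitial F far from the others of its group.

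Mmp2, gelatinase A (ENSMUSG00000031740, chromosome 8, 92827291 to 92853420, plus strand), had 225, 132 and 101 CPM in lining A, B and C, 4.43, 9.37 and 7.01 CPM in interstitial D, E and F, and 0.35, 0.20 and 0.09 CPM in BMDM G, H and I. The BMDM values came from 8, 4 and 2 counts, and a floor of 3 counts corresponds to 0.138 CPM in BMDM I. Every lining library lay far above every interstitial library, and every interstitial library above every BMDM library. The difference was 20.4-fold between lining and interstitial (log2 fold change 4.35 ± 0.36 SE, n = 3 per group, edgeR adjusted p = 3.44e-05). It held when each of the 9 libraries was left out in turn, with log2 fold changes of 3.97 to 4.66.

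Mmp14, the membrane-anchored activator of Mmp2 (ENSMUSG00000000957, chromosome 14, 54431612 to 54445364, plus strand), had 148, 92.6 and 80.7 CPM in lining, 1.33, 12.1 and 25.5 CPM in interstitial and 0.56, 0.60 and 0.88 CPM in BMDM. No groups overlapped, but the interstitial libraries differed widely, with D at 3 counts and close to BMDM. Mmp14 was 7.78-fold higher in lining than in interstitial (2.96 ± 0.61, edgeR adjusted p = 0.0234). That call was lost without lining A, without interstitial E or without any 1 of the BMDM libraries (highest adjusted p = 0.0767), when the 6 synovial libraries were fitted alone (adjusted p = 0.18) and with no filter on low counts (adjusted p = 0.109), while its direction held in each. Without interstitial F the log2 fold change was 3.65.

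Timp2, the inhibitor that takes part in activating the Mmp2 proenzyme (ENSMUSG00000017466, chromosome 11, 118301069 to 118355740, minus strand), had 6595, 5388 and 4974 CPM in lining, 2282, 1998 and 1577 CPM in interstitial and 176, 165 and 180 CPM in BMDM. The groups were far apart relative to their spread. Lining stood 2.90-fold above interstitial (1.53 ± 0.17, edgeR adjusted p = 0.000177), and leaving out any library kept the call. The gene Cep295nl lies within Timp2 on the same strand, with no shared exon bases, and no exon of the other members overlapped an exon of another gene on its strand.

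Mmp13, collagenase 3, which cuts the collagen of cartilage (ENSMUSG00000050578, chromosome 9, 7272514 to 7283331, plus strand), was the member that was lower in lining. It had 0, 1.24 and 0.38 CPM in lining, from 0, 13 and 1 counts, 7.09, 8.37 and 10.6 CPM in interstitial and 2.24, 2.24 and 2.54 CPM in BMDM. All lining libraries lay below the other 6, and a count of 0 in lining A allows up to 1.45 CPM there. Mmp13 was 11.9-fold lower in lining than in interstitial (log2 fold change -3.57 ± 0.77, edgeR adjusted p = 0.0183). Without lining B the group keeps 1 count and the ratio was 41.6-fold, with an exact binomial 95% counting interval of 7.36 to 1653. The call was kept with each library left out and lost when the 6 synovial libraries were fitted alone (adjusted p = 0.0686).

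The other 6 genes did not pass between the synovial groups. Mmp9, gelatinase B (ENSMUSG00000017737, chromosome 2, 164940780 to 164955850, plus strand), had 2.42, 26.9 and 42.1 CPM in lining and 55.4, 123 and 86.7 CPM in interstitial, which do not overlap (log2 fold change -1.87 ± 0.64, edgeR adjusted p = 0.15). It passed with DESeq2 (adjusted p = 0.0268) and with limma-voom (adjusted p = 0.0261), at log2 fold changes of -1.91 and -2.18. Lining A was far below the other lining libraries. Mmp19, a secreted MMP (ENSMUSG00000025355, chromosome 10, 128790910 to 128800824, plus strand), had 24.7, 35.8 and 31.2 CPM in lining and 46.5, 54.3 and 279 CPM in interstitial (-2.04 ± 0.66, edgeR adjusted p = 0.133). The groups did not overlap, DESeq2 called it (-2.07, adjusted p = 0.0028) and so did the edgeR fit without interstitial D (-2.42), and without interstitial F the log2 fold change was -0.74.

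Mmp12, the macrophage elastase (ENSMUSG00000049723, chromosome 9, 7344381 to 7369499, plus strand), had 6.79, 5.34 and 37.5 CPM in lining and 0, 10.01 and 374 CPM in interstitial. Interstitial F alone held nearly all of its group's counts, and interstitial D had none, which allows up to 1.33 CPM there. The log2 fold change between the synovial groups was -3.05 ± 1.85 (edgeR adjusted p = 0.438) and turned to 1.17 without interstitial F. Timp1, a secreted inhibitor of most MMPs (ENSMUSG00000001131, chromosome X, 20870166 to 20874735, plus strand), had 0.48, 1.15 and 25.5 CPM in lining and 6.21, 1.82 and 38.7 CPM in interstitial (-0.83 ± 1.35, edgeR adjusted p = 0.798). Lining C and interstitial F were the highest of their groups for Timp1 as for Mmp12, and the Timp1 value ran from -4.01 without lining C to 1.23 without interstitial F.

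Timp3, an inhibitor that binds to the matrix (ENSMUSG00000020044, chromosome 10, 86300372 to 86349506, plus strand), had 5.82, 6.68 and 4.51 CPM in lining and 6.65, 15.5 and 14.9 CPM in interstitial (-1.12 ± 0.49, edgeR adjusted p = 0.232). Lining B and interstitial D were nearly equal, so the groups just overlapped. Mmp8, the collagenase first known from neutrophils (ENSMUSG00000005800, chromosome 9, 7558456 to 7568485, plus strand), had 0 counts in every lining library, and in interstitial it had 19 counts in E, or 1.73 CPM, and 0 in D and F. Lining was at least 5.36-fold below interstitial, computed against 3 counts over the group (edgeR adjusted p = 0.186). The bound was 1.67-fold without lining B, and without interstitial E there is no count in either group.

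**Figure D2:**
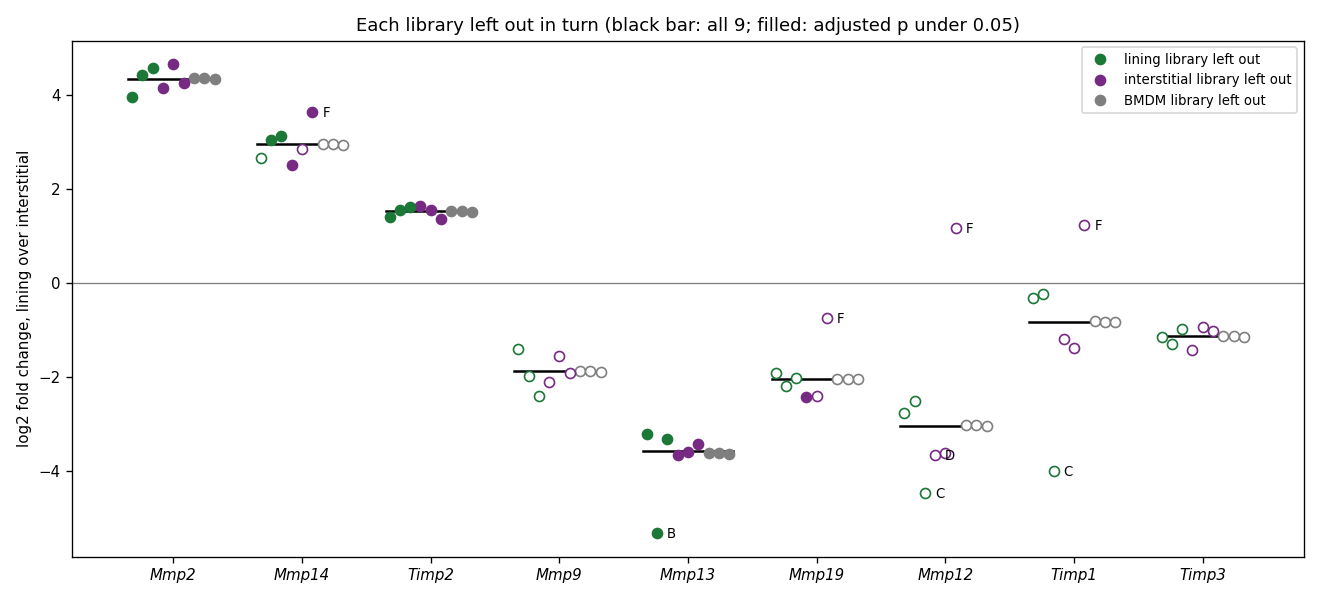
Log2 fold change of lining over interstitial for 9 of the genes when each of the 9 libraries was left out in turn, coloured by the group of the library left out, with a bar at the value from all libraries and filled points where the adjusted p was under 0.05. Mmp2, Timp2 and Mmp13 are filled throughout, Mmp14 in 4 of 9, and the open points of Mmp12 and Timp1 cross 0 without interstitial F.

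Markers of other joint cells were set beside these differences. Over all genes tested, 5.79% were called between the synovial groups, 43.5% between lining and BMDM and 44.8% between interstitial and BMDM. The 13 synovial fibroblast markers, cells that also make MMPs and TIMPs, summed to 281 to 407 CPM in lining. In interstitial they summed to 200 to 720 CPM and in BMDM to 16.2 to 19.8 CPM. Pdpn (9.74 to 13.1 CPM) and Clic5 (3.33 to 3.92 CPM) made up most of the BMDM sums. Lum and Has1 were at 0 in BMDM, and Col1a1 had 1.04 to 1.48 CPM there. The lining sums lay within the interstitial range, but single genes weighed on the sums. Prg4 had 408 CPM in interstitial E, and Pdpn had 96.5 to 108 CPM in lining. Of the 12 tested, 1 was higher in lining than in interstitial, Pdpn, at 1.92 ± 0.48 (edgeR adjusted p = 0.0461), and 0 were lower. By edgeR, 4 of the 12 had an unadjusted p under 0.05 between these groups. The Pdpn call was kept in 2 of the 9 fits that left out a library, those without interstitial D or F, and its log2 fold change was 2.88 without F. Col1a1 had 27.7 to 55.9 CPM in lining and 25.7 to 52.0 CPM in interstitial, and Dcn had 31.7 to 34.5 CPM in lining and 48.0 to 80.3 CPM in interstitial. Pdgfra had 0.38 to 1.45 CPM in lining and 5.31 to 6.21 CPM in interstitial. Against BMDM, 10 of the 12 were higher in lining and 8 in interstitial, 0 were lower in either, and their part in the differences of Mmp2, Mmp14, Timp2 and Timp3 from BMDM was not tested.

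The 8 osteoclast markers, cells known for Mmp9, summed to 128 to 243 CPM in lining, 226 to 436 CPM in interstitial and 55.3 to 61.2 CPM in BMDM. Ctsk, at 85.4 to 146 CPM in lining and 178 to 340 CPM in interstitial, made up most of the synovial sums. Of the 6 tested, Ctsk (-1.15) and Atp6v0d2 (-2.21) were lower in lining than in interstitial, and 0 were higher. Acp5 was not called, at 33.9 to 80.9 CPM in lining and 25.3 to 73.5 CPM in interstitial. Dcstamp and Itgb3 were at 0 in interstitial D and at 21.2 and 41.4 CPM in interstitial F. By edgeR, 3 of the 6 had an unadjusted p under 0.05 between these groups. The call of Ctsk was lost without lining A, lining B or interstitial E, and that of Atp6v0d2 without lining B or interstitial F. Oscar was at 0 in each synovial group and Calcr at 0 in lining and in BMDM. Against BMDM, 2 of the 6 were higher in lining and 3 in interstitial, with 0 lower. The part of these markers in the differences of Mmp13 and Mmp9 was not tested.

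The 12 neutrophil markers, cells that store Mmp8 and Mmp9, summed to 0.970 to 7.44 CPM in lining, 0 to 87.3 CPM in interstitial and 46.3 to 58.8 CPM in BMDM. All were at 0 in interstitial D, where a count of 0 allows up to 1.33 CPM for each gene and Mmp9 had 55.4 CPM. Their part in the Mmp9 differences was not tested. Elane and Prtn3 were at 0 in each synovial group, and Ly6g and Mpo in lining. Of 7 tested, 0 were called between lining and interstitial by edgeR, 3 had an unadjusted p under 0.05, 4 were lower in lining than in BMDM and 0 were called between interstitial and BMDM, where likewise 0 had an unadjusted p under 0.05. The highest sum of the list in interstitial was that of F, which had 0 counts of Mmp8. Retnlg alone had 62.2 CPM in F and 20.6 CPM in E. Retnlg, Cxcr2 and Mpo were higher in F than in E, with Mpo at 6 counts in F and 0 in E. Ly6g had 1 count in F and 0 in E, which does not tell them apart. S100a8, S100a9, Ltf, Camp, Ngp and Lcn2 were higher in E, with Ngp at 15.2 CPM in E and 1.91 CPM in F. The part of these markers in the 19 counts of Mmp8 in E was not tested.

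The 9 endothelial and mural markers summed to 6.38 to 17.8 CPM in lining, 37.7 to 67.4 CPM in interstitial and 48.5 to 53.4 CPM in BMDM, and 1 of 6 tested, Pecam1, was lower in lining than in interstitial (-2.55), a call kept in 2 of the 9 fits that left out a library, those without interstitial D or E, and its log2 fold change was -1.69 without interstitial F and -3.23 without lining B. By edgeR, 3 of the 6 had an unadjusted p under 0.05 between the synovial groups. Against BMDM, 1 was higher and 1 lower in lining, and 4 were higher and 1 lower in interstitial. The lower gene was Kdr in each. Kdr had 45.2, 49.0 and 43.7 CPM in BMDM G, H and I and made up most of the BMDM sums. The 8 chondrocyte and osteoblast markers, other sources of Mmp13, stayed at 1.88 to 5.82 CPM in lining, 1.001 to 6.58 CPM in interstitial and 0.130 to 0.199 CPM in BMDM. Of the 2 tested, 0 were called between the synovial groups by edgeR, with 0 at an unadjusted p under 0.05, and both were higher in each than in BMDM. The 8 lymphocyte and mast cell markers summed to 3.88 to 11.1 CPM in lining, 12.9 to 20.2 CPM in interstitial and 11.2 to 11.9 CPM in BMDM, with 0 of 3 called between the synovial groups by edgeR, 0 at an unadjusted p under 0.05, and 2 higher and 1 lower than BMDM in each. The lower gene was Kit, which made up most of the BMDM sums, at 11.2, 11.6 and 10.9 CPM in G, H and I. Of the 9 macrophage identity genes, 3 were higher in lining than in interstitial and 0 lower. Among these 3 was Cx3cr1, whose reporter set the sort, so that call followed from the sort. Against BMDM, 6 of the 9 were higher and 0 lower in lining, and 3 were higher and 3 lower in interstitial. Cx3cr1 was called there too, higher in lining and lower in interstitial. In bulk libraries, fewer cells of a type and less RNA per cell cannot be told apart.

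Set against cultured macrophages, lining macrophages carried more Mmp2, Mmp9, Mmp14, Timp2 and Timp3 transcripts and no counted Mmp8. Of the 10 genes, 5 were higher in lining than in BMDM, 1 was lower and 4 were not called, and 9 did not overlap. These counts stand beside 43.5% of all genes called, 23.1% higher and 20.5% lower, and 63.1% not overlapping. The median log2 fold change of the 10 was 3.32, beside 0.00 over all genes. Mmp2 was 670-fold higher (log2 fold change 9.39 ± 0.48, edgeR adjusted p = 3.00e-08), Mmp14 155-fold (7.28 ± 0.76, adjusted p = 5.73e-05) and Timp2 32.6-fold (5.03 ± 0.19, adjusted p = 3.87e-09). The size of the Mmp2 fold rests on 14 counts over the BMDM libraries. The gelatinase Mmp9, at 0.95, 0.79 and 1.29 CPM in BMDM, was 23.8-fold higher in lining (4.57 ± 0.76, edgeR adjusted p = 0.00124). The lining libraries spanned 17.3-fold for Mmp9, and lining A, at 2.42 CPM from 5 counts, lay close to BMDM. Timp3, at 0.61, 0.65 and 0.60 CPM in BMDM, was 9.14-fold higher in lining (3.19 ± 0.53, adjusted p = 0.000483). All 5 calls were kept with each library left out.

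Mmp8 was the gene called lower in lining, with 0 counts there and 10.4, 13.5 and 7.10 CPM in BMDM. It passed the filter on low counts only through the BMDM libraries, where it was high. Its calls against BMDM in lining and in interstitial are therefore descriptions. Lining was at least 52.0-fold below BMDM (edgeR adjusted p = 0.0019), or at least 16.2-fold without lining B, the deepest lining library. Among the genes not called, Mmp13 had a log2 fold change of -1.68 ± 0.75 (edgeR adjusted p = 0.0884), with every lining library below every BMDM library. Without lining B, which held 13 of the 14 lining counts, it passed (adjusted p = 0.0221), at an 11.1-fold lower ratio with an exact binomial 95% counting interval of 1.96 to 440. Mmp12, at 97.3, 100 and 83.2 CPM in BMDM, likewise lay lower in all 3 lining libraries without passing (-2.59 ± 1.82, adjusted p = 0.3). It passed in the fits of the lining and BMDM libraries alone (-2.68, adjusted p = 0.00633) and without interstitial F (adjusted p = 0.0231), and its log2 fold change was -4.03 without lining C. Timp1, at 1.08, 0.60 and 0.69 CPM in BMDM, had 3.45 ± 1.48 (edgeR adjusted p = 0.0885), which rested on lining C and was 0.25 without it. Mmp19, at 16.2, 13.9 and 16.2 CPM in BMDM, was at 1.01 ± 0.65 (edgeR adjusted p = 0.247) with no overlap, and passed when the lining and BMDM libraries were fitted alone (0.99, adjusted p = 0.00292).

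Interstitial macrophages differed from BMDM in 9 of the 10 genes. Of these 8 were higher in interstitial and 1 was lower, and 9 did not overlap, beside 44.8% of all genes called, 23.4% higher and 21.3% lower, and 62.2% not overlapping. The median log2 fold change was 3.89, beside -0.01 over all genes. The comparison uses the same BMDM libraries as the preceding comparison, with 14 counts of Mmp2 over them. Mmp9 had the largest log2 fold change of the 10, 86.8-fold higher (6.44 ± 0.79, edgeR adjusted p = 0.000192). Mmp2 was 32.8-fold higher (5.04 ± 0.48, adjusted p = 5.31e-06), Timp3 19.9-fold (4.32 ± 0.54, adjusted p = 5.07e-05), Mmp14 19.9-fold (4.31 ± 0.72, adjusted p = 0.00105) and Timp2 11.2-fold (3.49 ± 0.18, adjusted p = 2.91e-08). These 5 calls held with each library left out, and the log2 fold change of Mmp14 was 3.57 without interstitial F.

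The other calls against BMDM were less firm. Mmp19 was 8.24-fold higher in interstitial (3.04 ± 0.66, edgeR adjusted p = 0.00611) and stayed called, at 1.69, without interstitial F. Mmp13 was 3.72-fold higher (1.89 ± 0.65, adjusted p = 0.0329), a call lost without interstitial E or F or any 1 BMDM library (log2 fold changes from 1.71 to 1.98, highest adjusted p = 0.139). Timp1 was higher (4.28 ± 1.49, adjusted p = 0.0426), but the call was lost without interstitial F, where the log2 fold change was 2.20, or without any 1 BMDM library. Mmp8 was 12.9-fold lower (-3.69 ± 0.98, adjusted p = 0.0118), a call lost without BMDM H, and at least 23.8-fold lower without interstitial E, whose counts were the only ones in the group. Mmp12 was not called (0.46 ± 1.59, edgeR adjusted p = 0.842), and its direction rested on interstitial F: without it the log2 fold change was -3.82 (adjusted p = 0.0123).

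**Figure D3:**
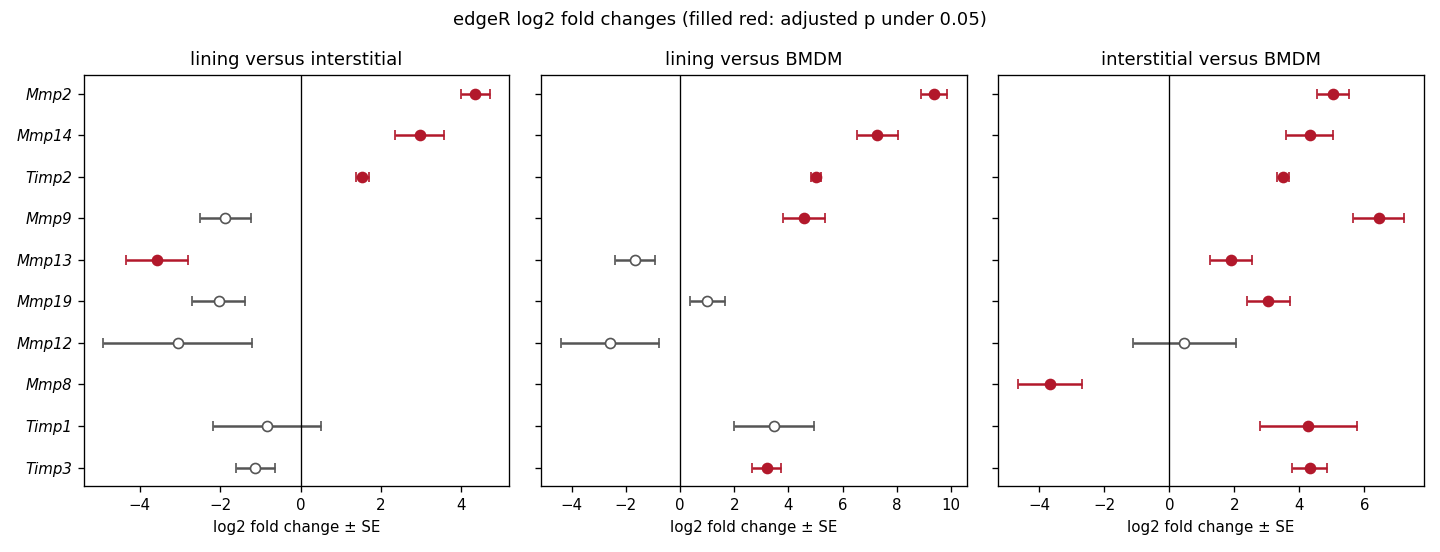
edgeR log2 fold changes ± SE of the 10 genes for lining over interstitial, lining over BMDM and interstitial over BMDM, with filled red points for an adjusted p under 0.05; Mmp8 is left out of the first pair of panels because lining had 0 counts. Mmp2, Mmp14 and Timp2 lie to the right of 0 in all panels, and Mmp13 lies to the left in each lining panel and to the right for interstitial over BMDM.

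The order of the groups thus fell into a few forms. Mmp2, Mmp14 and Timp2 ran lining, interstitial, BMDM from high to low, with each step called. Mmp9 and Timp3 ran interstitial, lining, BMDM, and the first step was not called in either. Mmp19 and Timp1 had the same order, but neither neighbouring step was called for them, and interstitial was called higher than BMDM. Mmp13 ran interstitial, BMDM, lining, and the step between BMDM and lining was not called. Mmp8 was highest in BMDM and not distinguished between the synovial groups, and no step was called for Mmp12.

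The makeup of the MMP transcripts was compared per exon length, as FPKM (CPM per kilobase of exon), summed over all MMP genes in the table. Mmp2 was the leading MMP in all 3 lining libraries, with 61.1%, 50.2% and 41.1% of the MMP FPKM in A, B and C, and Mmp14 was the next with 22.8%, 20.0% and 18.7%. In the interstitial libraries Mmp9 led in D and E, with 38.2% and 54.5%, and Mmp19 led in F, with 46.2%, followed there by Mmp12 with 30.2%. The order in F rests on the exon lengths, 3533 bases for Mmp19 and 7237 bases for Mmp12. In CPM, Mmp12 stood above Mmp19 in F, at 374 and 279 CPM. Mmp12 led in BMDM, with 52.4%, 52.8% and 51.4% in G, H and I. Among the gelatinases, Mmp2 thus stood above Mmp9 in all 3 lining libraries and Mmp9 above Mmp2 in all 3 interstitial libraries, while Mmp9 took at most 1.63% and Mmp2 at most 0.40% in BMDM. These shares are descriptions without a test.

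Timp2 made up 97.8% to 99.9% of the TIMP FPKM in lining, 89.9% to 99.2% in interstitial and 97.2% to 98.2% in BMDM. The summed TIMP FPKM over the summed MMP FPKM was 15.5, 17.8 and 18.0 in lining A, B and C, 14.5, 8.12 and 2.63 in interstitial D, E and F, and 1.81, 1.65 and 2.10 in BMDM. All synovial libraries thus had a higher ratio than the BMDM libraries, and the lining libraries a higher one than the interstitial libraries, of which D was close to lining and F close to BMDM. Set against Mmp2 alone, Timp2 FPKM was 25.4 to 42.8 times as high in lining, 184 to 445 times in interstitial and 439 to 1688 times in BMDM. The BMDM ratios rest on 8, 4 and 2 counts of Mmp2 in G, H and I, so their size is uncertain. The ratios are between transcripts and say nothing of active enzyme.

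**Figure D4:**
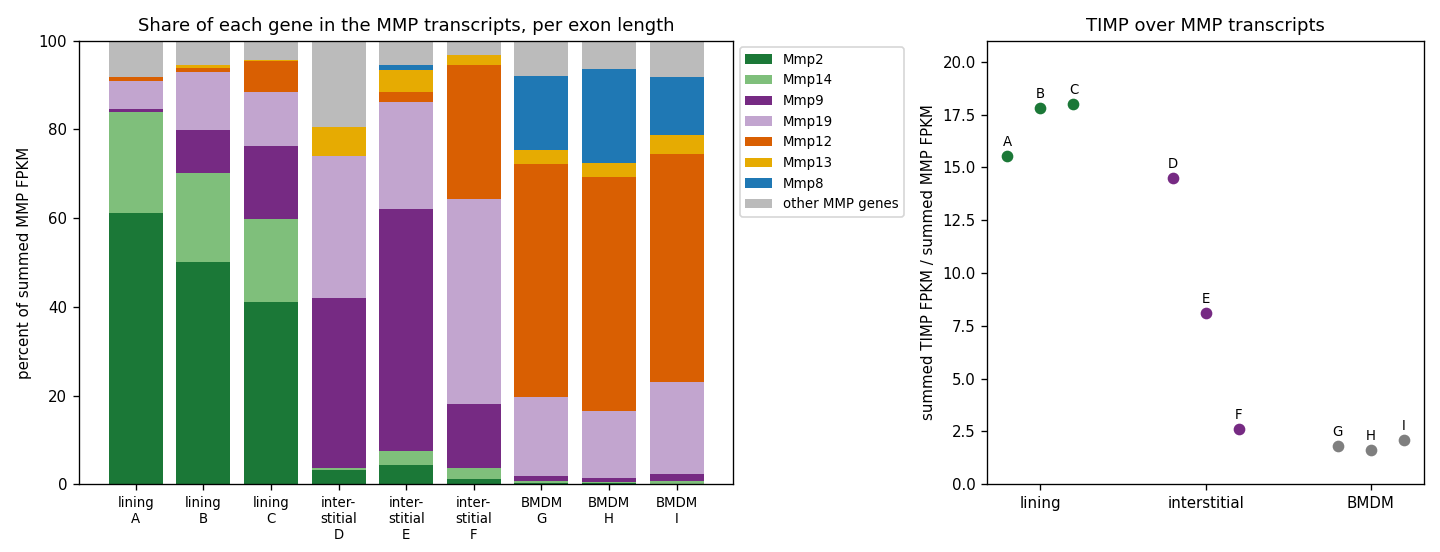
Left, percent of the summed MMP FPKM taken by each gene in each of the 9 libraries; right, summed TIMP FPKM over summed MMP FPKM by library. Mmp2 and Mmp14 fill most of each lining bar, Mmp9 or Mmp19 leads in interstitial bars and Mmp12 in BMDM bars, and the ratio is 15.5 to 18.0 in lining, 2.63 to 14.5 in interstitial and 1.65 to 2.10 in BMDM.

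Mmp13, Mmp12 and Mmp8 lie in a cluster of 10 MMP genes on chromosome 9 (GRCm38, 7272514 to 7699585, 427 kb). Along the cluster the 3 did not share a pattern: mean CPM was 0.54 ± 0.64 in lining, 8.69 ± 1.79 in interstitial and 2.34 ± 0.17 in BMDM for Mmp13 (SD, n = 3 each). For its neighbour Mmp12, whose gene starts 71.9 kb further on, it was 16.6 ± 18.2 in lining, 128 ± 213 in interstitial and 93.6 ± 9.15 in BMDM. Mmp8 was at 0 in lining, 0.58 ± 0.998 in interstitial and 10.3 ± 3.18 in BMDM. Of the other 7 genes, Mmp1a, Mmp1b, Mmp7 and Mmp20 had 0 counts in all 9 libraries. Mmp3, stromelysin 1, had 1 count in lining, 15 in interstitial and 0 in BMDM, Mmp10 had 0, 0 and 6, and Mmp27 had 13, 7 and 129 in lining, interstitial and BMDM. At these depths, 0 counts over a group allow up to 0.197 CPM in lining, 0.167 CPM in interstitial and 0.0462 CPM in BMDM.

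**Figure D5:**
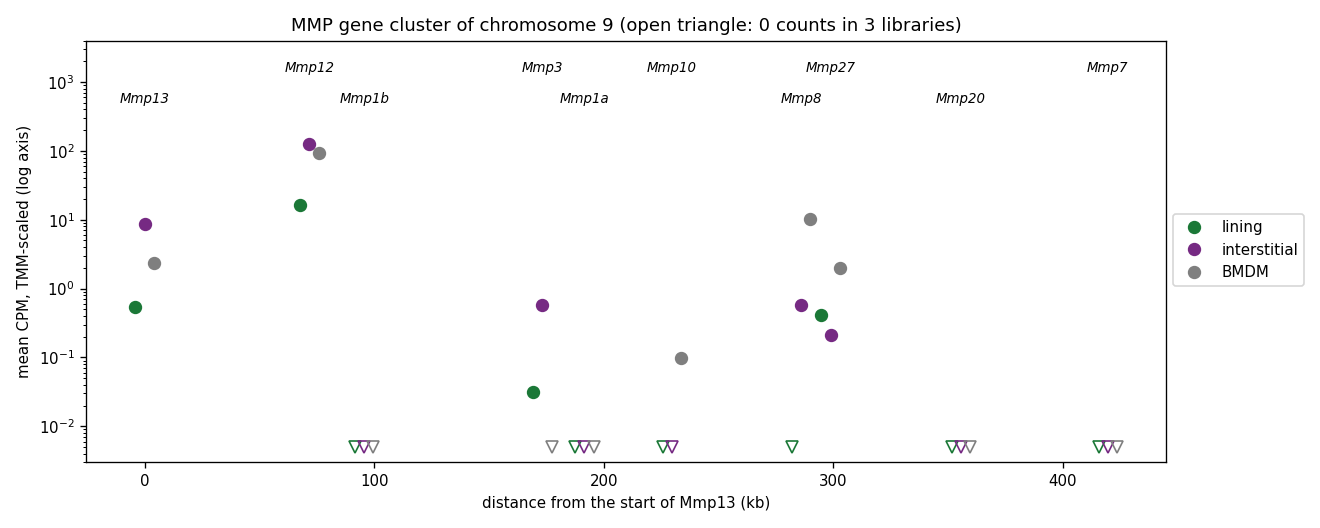
Mean TMM-scaled CPM (log axis) of the 10 MMP genes of the chromosome 9 cluster in each group of 3 libraries, by distance in kb from the start of Mmp13; points of a gene are spread sideways, and open triangles mark 0 counts in all 3 libraries of a group. Mmp12 has the highest mean in each group, and 4 genes have 0 counts in every library.

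Of the genes that activate, inhibit or clear MMPs, 23 were listed and 19 tested. Between lining and interstitial 3 were higher in lining and 0 lower: Sparc, a collagen-binding matrix protein (4.65 ± 0.26, edgeR adjusted p = 2.34e-06), Thbs2, a secreted thrombospondin that binds Mmp2 (3.04 ± 0.60, adjusted p = 0.0118), and Lrp1, the endocytic receptor that takes up MMPs and their complexes (1.31 ± 0.20, adjusted p = 0.00236). Sparc averaged 2423 ± 718 CPM in lining, 95.9 ± 22.4 CPM in interstitial and 0.29 ± 0.11 CPM in BMDM. The call of Thbs2 was lost without lining A (adjusted p = 0.0719), and its log2 fold change was 3.91 without interstitial E. Furin, a convertase that trims many proenzymes, and Bsg, known as an inducer of MMPs, were named after their values were seen. Furin averaged 383 ± 53.6 CPM in lining and 378 ± 194 CPM in interstitial (0.02 ± 0.27, adjusted p = 0.986). Bsg averaged 244 ± 29.6 CPM in lining and 240 ± 57.9 CPM in interstitial (0.03 ± 0.17, adjusted p = 0.961). Against BMDM, 8 were higher and 1 lower in lining, beside 43.5% of all genes called. In interstitial 9 were higher and 3 lower than in BMDM, beside 44.8%. Among those higher in lining were Sparc, Thbs2 and Plat, the tissue plasminogen activator (5.84 ± 1.26, edgeR adjusted p = 0.00283). Plat had 0.97, 2.10 and 17.6 CPM in lining A, B and C, and its log2 fold change was 3.82 without lining C.

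All 15 transcription factors listed as regulators of MMP genes (AP-1, NF-kB and ETS members with Runx2) were tested. Between lining and interstitial 1 was higher and 0 lower, Runx2, a factor known to drive Mmp13 in skeletal cells, at 2.99 ± 0.72 (edgeR adjusted p = 0.0315). Runx2 averaged 7.63 ± 2.66 CPM in lining, 1.18 ± 0.98 CPM in interstitial and 7.97 ± 1.34 CPM in BMDM. Its part in the Mmp13 differences was not tested. The Runx2 call was kept in 2 of the 9 fits that left out a library (highest adjusted p = 0.0918), with log2 fold changes from 2.31 without interstitial E to 3.69 without interstitial D. The AP-1 gene Fos averaged 1703 ± 184 CPM in lining, 1689 ± 401 CPM in interstitial and 22.7 ± 3.40 CPM in BMDM, and Fosb 890 ± 275 CPM in lining, 853 ± 355 CPM in interstitial and 2.03 ± 0.54 CPM in BMDM. Against BMDM 10 factors were higher and 1 lower in lining, beside 43.5% of all genes called. In interstitial 10 were higher and 2 lower than in BMDM, beside 44.8%. Fos (6.23 ± 0.23, edgeR adjusted p = 2.86e-09) and Fosb (8.78 ± 0.46, adjusted p = 1.66e-07) were among those higher in lining, and both were also higher in interstitial (6.22 and 8.72).

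The genes whose levels most resembled each member were found by the root mean square difference of centred log2 CPM over the 9 libraries, a description that the large step between sorted cells and BMDM weighs on. Nearest to Mmp2 were Pmepa1 (0.49), Fgf2 (0.60) and Adamtsl2 (0.73), and to Mmp14 Ccn4 (0.49) and Klf12 (0.60). Timp2 was closest to Pde3b (0.26), Ttc28 (0.26) and Apoe (0.27), and Mmp9 to Mamdc2 (0.45), Mcpt4 (0.60) and Ssc5d (0.67). For Mmp13 they were Tmc3 (0.44), Igip (0.49) and Gm15545 (0.59), and for Mmp12 Vegfa (0.53), Dhrs9 (0.62) and Itgb3 (0.89). Differences were 0.66 or more for Mmp8 and 0.82 or more for Timp1, whose nearest genes were Msantd3 and F10. Mmp19 was nearest to H2-DMa (0.51) and Timp3 to 2410004P03Rik (0.34).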

How the data were processed

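The authors deposited a table of read counts per gene, not normalised. Per the file headers, featureCounts 1.6.1 counted reads in exons by gene on the reverse strand (option 2) with the Ensembl GRCm38 annotation, release 91, and no option for multi-mapping reads. STAR 2.5.4a, cutadapt 1.15, bcl2fastq 2.17.1.14, Subread, R 3.5.0 and DESeq2 1.20.0 are named, without settings, in the submitters' processing notes. Per the labels' protocols, 500 ng of RNA gave stranded mRNA libraries read as single 101 bp reads. There are no molecular identifiers, so intervals and floors cover counting error only.

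In R 4.3.3, edgeR 4.0.16 kept 12610 of 53465 genes with filterByExpr (minimum count 10, minimum total 15), scaled them by TMM and fitted all 9 libraries with a robust quasi-likelihood model that has 1 mean for each group (6 residual degrees of freedom). Tests of the 3 contrasts were 2-sided, and p-values were adjusted by the Benjamini-Hochberg method. "Higher" and "lower" with a fold change refer to genes called at an adjusted p under 0.05. SD is over the 3 libraries of a group. A total of 53274 identifiers matched a symbol and 191 did not. DESeq2 1.42.0, limma-voom (limma 3.58.1), size-factor (RLE) scaling, no filter, a fit of the 6 libraries compared and leaving out each library were tried. The scripts were tested on simulated data with 200 genes changed.

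The 10 genes and the 11 lists set beside them were chosen with earlier results of these data known. All 10 are described. From other lists, up to 4 called genes with the largest fold change could be named, and from all genes up to 3 of the nearest to each member by level. A gene that the rule would name is not reported here. Genes outside that rule are marked as such, apart from the marker genes that define a cell type.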

Additional observations from a re-analysis of the deposited data

Results flagged for a closer look

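Mmp13 stood on opposite sides of BMDM in the synovial groups: its log2 fold change was -1.68 for lining over BMDM and 1.89 for interstitial over BMDM, and the difference between these effects was -3.57. All 3 lining libraries lay below, and all 3 interstitial libraries above, every BMDM library. Since both effects use the same BMDM libraries, the test of their difference is that of lining against interstitial (edgeR adjusted p = 0.0183). The lining value rests on 14 counts, 13 of them in lining B. Without lining B the lining group keeps 1 count, and lining over BMDM, which did not pass with all libraries (adjusted p = 0.0884), passed (adjusted p = 0.0221) at a fitted log2 fold change of -3.46 and a ratio of counts 11.1-fold lower (exact binomial 95% counting interval 1.96 to 440).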

How the results depend on the processing

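No paired analysis was possible because the libraries carry different letters and nothing in the labels links them. The 3 comparisons were repeated under RLE scaling, DESeq2, limma-voom, no filter, the 6 compared libraries alone, each library left out, and, chosen after seeing the data, neither lining C nor interstitial F. Of the values for single genes, direction and side of the threshold held in 133 of 147 for lining over interstitial, 136 of 149 for lining over BMDM and 133 of 149 for interstitial over BMDM, and the direction turned in 2, 0 and 3. The genes called between lining and interstitial numbered 730, against 1298 with DESeq2, 366 with the 6 libraries alone, 1107 with neither C nor F, and 396 (without lining A) to 888 (without interstitial F) with 1 library left out. Of the 10 genes, those lower in lining than in interstitial numbered 1, against 3 with DESeq2 (Mmp9 and Mmp19 added), 2 with limma-voom (Mmp9 added), 0 with the 6 libraries alone and 1 to 2 with a library left out. Those lower in lining than in BMDM numbered 1, against 3 with limma-voom, 2 with the 6 libraries alone, 2 with neither C nor F, and 1 to 2 with a library left out. Those lower in interstitial than in BMDM numbered 1, against 2 with limma-voom, 2 with neither C nor F, and 0 to 2 with a library left out. The Mmp12 log2 fold change of interstitial over BMDM, 0.46, was -2.67 with limma-voom, -3.76 with neither C nor F, and -3.82 to 1.01 with a library left out. For lining over interstitial, leaving out a library gave -4.47 to 1.17 for Mmp12 and -4.01 to 1.23 for Timp1. DESeq2 gave no adjusted p for Mmp12. The cause of these shifts was not tested. Leaving out a BMDM library removes a residual degree of freedom from each comparison. In the shallowest sorted libraries, lining A, lining C and interstitial D, 3 counts correspond to 1.13 to 1.45 CPM, which limits what can be said of genes near that level there.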

Other observations

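Of 17 further MMP and TIMP genes, 4 were tested. Between lining and interstitial 0 were called by edgeR, and 0 had an unadjusted p under 0.05. Against BMDM, 2 were higher in each synovial group and 0 lower: Mmp11, stromelysin 3 (3.50 ± 0.83 in lining, edgeR adjusted p = 0.00484, and 3.56 ± 0.83 in interstitial, adjusted p = 0.00412), and Mmp28, a secreted MMP also called epilysin (2.69 ± 0.77 in lining, adjusted p = 0.0144, and 2.33 ± 0.77 in interstitial, adjusted p = 0.0262). Mmp28 had 25.2, 4.77 and 7.51 CPM in lining A, B and C and 17.3, 2.46 and 9.77 CPM in interstitial D, E and F, and its log2 fold changes were 1.65 without lining A and 1.62 without interstitial D. That of Mmp11 in interstitial was 2.66 without interstitial D. The calls of Mmp28 were lost in 3 of 9 fits that left out a library for lining and in 5 of 9 for interstitial. Over all genes tested, 43.5% were called between lining and BMDM and 44.8% between interstitial and BMDM.

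Among 19 ADAM and ADAMTS metalloproteinases, relatives of the MMPs, 13 were tested. Adamts14, a procollagen-processing enzyme, was lower in lining than in interstitial (-2.03 ± 0.43, edgeR adjusted p = 0.0175), at 8.13 ± 4.35 CPM in lining and 35.1 ± 9.97 CPM in interstitial (SD, n = 3 each), and 0 were higher. That call was lost without lining A or interstitial E. Against BMDM, 10 were higher and 1 lower in lining, beside 43.5% of all genes called. In interstitial 9 were higher and 2 lower than in BMDM, beside 44.8%. Adam19, a membrane-bound sheddase, averaged 383 ± 77.97 CPM in lining, 449 ± 52.8 CPM in interstitial and 0.86 ± 0.04 CPM in BMDM, with log2 fold changes against BMDM of 8.78 and 9.01.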
